A study of Homo sapiens with 4 samples.

Results

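The windows described are the transfer RNA (tRNA) genes of the RefSeq annotation of hg38 (assembly GRCh38.p14) on chromosomes 1 to 22, each taken with 500 bp on both sides. Of 465 tRNA entries in the gene table, 425 were kept. The others were 22 mitochondrial genes, 4 genes on X and 14 entries listed under a chromosome number whose coordinates did not run on with that chromosome's, taken to be those of scaffolds. A window counted as having a peak where at least 1 bp was overlapped by a peak of a replicate's list. The genes were 70 to 108 bp long, with a median of 73 bp. They fell into 128 loci when genes 50 kb or less apart were joined, of which 48 were clusters with 345 genes and 80 were single genes. Chromosome 6 held 154 of the genes and chromosome 1 held 85.

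The data are ChIP-seq of PD-L1, the ligand of the T-cell receptor PD-1 and a protein best known at the cell surface, precipitated through an HA tag with the Abcam antibody ab9110. The cells were an untreated subclone of MDA-MB-231, an established triple-negative breast cancer line, with the genotype label wild type. The sources used here do not say how the cells came to carry the HA tag. There were 2 ChIP samples, called independent and biological in the design text, and 2 inputs, and each ChIP sample came with 1 list of broad peaks. No mock precipitation was analysed here, so binding of the tagged protein cannot be told apart from recovery of chromatin without it. Replicate 1 came with 166628 peaks and replicate 2 with 93618, and library depth is unknown. All peak names of replicate 2 contain "Merge", which the sources used here leave unexplained. Whether that list was called on replicate 2 alone is therefore unknown, and every count of peaks in both replicates rests on the lists being separate. All comparisons are given as counts with no test, since there is 1 list per replicate. Windows share clusters, peaks and near-identical sequences and are not replicates of a condition.

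tRNA genes are transcribed by RNA polymerase III from promoters that lie inside the gene. Their A box and B box are bound by the factor TFIIIC, which brings in TFIIIB (with BRF1, BDP1 and TBP) and then the polymerase. The genome carries many copies of most tRNA genes, in clusters and as single genes, and only some copies are active in a given cell. A RefSeq symbol such as TRI-AAT8-1 gives the amino acid by its single-letter code, the anticodon, a number for the distinct gene sequence (the isodecoder) and a number for the copy. The letter X stands for the initiator methionine and U for selenocysteine.

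The first set of sequences shows tRNA genes with and without a peak, with 1 pair of identical copies among them. The whole gene was read from a RefSeq promoter sequence (GRCh38.p14) for 14 of the genes, of which 9 had a peak in replicate 1 and 5 had none. Not every chromosome was included in this reading. The 14 are therefore the genes that were read, and need not be all that could be. Capitals mark the letters of the B box, searched as GTTCNANNC on both strands. These letters stood in all 14 genes, the 9 with a peak and the 5 without, and in 7.48% of all 35116 promoters. The gene's strand is inferred from the strand of this match. The 8 shown were chosen after their values were seen. A peak here is one on the gene's window, and at TRF-GAA1-5 the peak of replicate 2 did not overlap the gene itself.
TRI-AAT8-1 (chr6:27668583-27668656, + strand, peak in replicate 1): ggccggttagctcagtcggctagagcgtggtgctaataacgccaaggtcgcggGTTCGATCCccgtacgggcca
TRR-ACG2-1 (chr3:45688999-45689071, − strand, peak in replicate 1): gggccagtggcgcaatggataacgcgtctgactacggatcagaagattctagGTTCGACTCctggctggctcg
TRT-TGT6-1 (chr5:181191687-181191758, − strand, peak in both replicates): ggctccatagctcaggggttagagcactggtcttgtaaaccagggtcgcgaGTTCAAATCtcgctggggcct
TRF-GAA1-5 (chr13:94549650-94549722, − strand, peak in both replicates): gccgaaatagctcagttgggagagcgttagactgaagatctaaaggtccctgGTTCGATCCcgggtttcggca
TRH-GTG1-9 (chr15:45201151-45201222, + strand, peak in replicate 1): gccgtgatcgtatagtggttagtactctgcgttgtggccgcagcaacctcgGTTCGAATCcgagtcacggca
TRH-GTG1-3 (chr1:148281365-148281436, + strand, no peak): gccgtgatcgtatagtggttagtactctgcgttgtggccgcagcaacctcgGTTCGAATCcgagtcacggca
TRL-AAG2-2 (chr6:28943622-28943703, − strand, no peak): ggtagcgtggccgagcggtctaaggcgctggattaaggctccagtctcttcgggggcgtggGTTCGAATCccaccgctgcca
TRA-AGC2-2 (chr6:28863685-28863756, − strand, no peak): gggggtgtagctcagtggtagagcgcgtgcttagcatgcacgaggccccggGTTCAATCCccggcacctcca
The histidine genes TRH-GTG1-9, which had a peak in replicate 1 at a fold enrichment of 3.99, and TRH-GTG1-3, which had none in either list, did not differ at any of their 72 bases. The leucine gene TRL-AAG2-2 on chromosome 6 had no peak, while TRL-AAG2-4 had the tenth strongest peak of replicate 1. The promoter of POLR3E, which encodes a subunit of RNA polymerase III, starts inside TRL-AAG2-4 and holds the last 63 of its 82 bases. These 63 bases, in capitals here because they are the tRNA gene, were the same in TRL-AAG2-2.
POLR3E promoter (chr16:22297159-22297458, + strand): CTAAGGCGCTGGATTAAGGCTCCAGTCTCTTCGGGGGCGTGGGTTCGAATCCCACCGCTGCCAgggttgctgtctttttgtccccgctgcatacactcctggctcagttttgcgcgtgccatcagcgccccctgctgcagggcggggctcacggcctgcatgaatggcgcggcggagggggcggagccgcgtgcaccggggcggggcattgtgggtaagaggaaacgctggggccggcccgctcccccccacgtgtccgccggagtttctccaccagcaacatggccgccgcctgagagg
The neighbourhoods of these genes also differed, by windows of the same width 1 to 20 kb away (the rings described below). In replicate 1, 17.5% of these had a peak at the locus of TRH-GTG1-9 and 0% at that of TRH-GTG1-3. The shares were 38.2% at TRL-AAG2-4 and 0.543% in the cluster of TRL-AAG2-2. The sources used here do not say how reads that map to identical copies were placed, and the part of this in which copies had a peak was not tested. The part of the neighbourhood was not tested either.

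In replicate 1, tRNA windows had a peak more often than their surroundings. Of 425 windows, 213 had a peak (50.1%, Wilson 95% interval 45.4% to 54.8%). Rings of windows of the same width, 1 to 20 kb away on both sides, had a peak in 14.3% when every tRNA gene was given equal weight, a ratio of 3.51. Of the 12365 ring windows pooled, 15% were called. In windows of 1073 bp (the median width) tiled over chromosomes 1 to 22 leaving out gene-free stretches of at least 1 Mb, 12% were called, and at the ends of protein-coding genes 46.1%. The intervals cover counting error only and are too narrow for genes that share clusters.

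Replicate 2 had a peak on 52 tRNA windows (12.2%, 9.45% to 15.7%), against 6.54% in the rings with equal weight, a ratio of 1.87. The share was 6.87% of the pooled rings, 6.29% of the genome windows and 16.9% of the gene-end windows. A peak in both replicates was found on 48 windows (11.3%, 8.63% to 14.7%), against 4.30% in the rings, a ratio of 2.63, with 4.56% of the pooled rings, 3.34% of the genome windows and 13.1% of the gene-end windows called. In replicate 2 and in both replicates together, tRNA windows were thus above their rings and below gene ends, while in replicate 1 they were above their rings and near gene ends.

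**Figure D1:**
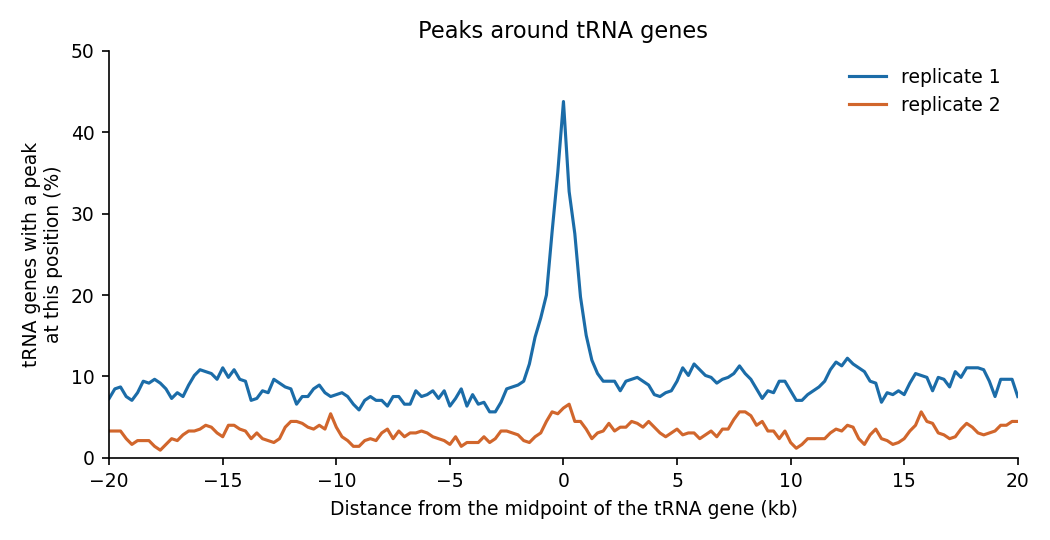
Share of the 425 tRNA genes (%, vertical axis) that had a peak at each position from 20 kb below to 20 kb above the gene's midpoint in genome coordinates (kb, horizontal axis), for replicate 1 (blue) and replicate 2 (orange). In replicate 1 the share was 43.8% at the midpoint and 8.94% and 9.41% at 2 kb to either side, while in replicate 2 it was 6.12% at the midpoint.

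The peaks of replicate 1 lay over the tRNA genes themselves. Of the 213 windows with a peak, 191 (89.7%) had one that overlapped the gene, and the share of genes under a peak dropped from 43.8% at the midpoint to 17.2% at 1 kb below and 15.1% at 1 kb above. In replicate 2, 27 of 52 windows (51.9%) had a peak on the gene, and the share under a peak was 6.12% at the midpoint and highest, 6.59%, at 250 bp above it. At 20 kb to either side it was 3.29% and 4.47% in replicate 2 and 7.29% and 7.53% in replicate 1. The plot of peaks around the genes shows a sharp summit for replicate 1. In replicate 2 the share also reached 5.65% at 7750 bp and at 15750 bp above the midpoint. Its values at the genes thus stood little above those at some distant positions.

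Of the 213 windows with a peak in replicate 1, 48 (22.5%) also had one in replicate 2, and of the 212 without, 4 (1.89%) did. Among ring windows the same shares were 30.3% and 2.71%. A stronger peak in replicate 1 did not come with a higher share in replicate 2. Of the 68 windows with a −log10 q of 4 or more in replicate 1, 16 (23.5%) had a peak in replicate 2, against 25 of 122 (20.5%) at 2 to 4 and 7 of 23 (30.4%) under 2.

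The tRNA peaks of replicate 1 were among the strongest of its whole list, by the fold enrichment and −log10 q that the authors' caller gave to each peak. The 154 peaks on tRNA windows had a median fold of 3.87 and a median −log10 q of 3.29, against 3.20 and 1.97 for the 519 peaks on rings only and 3.14 and 1.91 for all 166313 peaks on chromosomes 1 to 22. A −log10 q of 3 or more was reached by 86 of the tRNA peaks (55.8%), by 3.47% of the ring peaks and by 2.00% of all peaks. Their median width was 965.5 bp, against 660 bp in the rings. In replicate 2, the 43 peaks on tRNA windows had a median fold of 2.27 and a median −log10 q of 1.83, against 2.21 and 1.80 in the rings and 2.27 and 1.80 over all its peaks. A −log10 q of 3 was reached by 2 of them (4.65%), against 3.02% of all peaks of that replicate. The medians of the tRNA peaks were thus above those of the whole list in replicate 1 and close to them in replicate 2.

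Ranked by −log10 q, 8 of the 10, 16 of the 20 and 23 of the 40 strongest peaks of replicate 1 lay on tRNA windows (57.5% of 40, Wilson 42.2% to 71.5%), against 0.0926% of its whole list. Ranked by fold, the counts were 8, 13 and 17. None of the 500 strongest peaks of replicate 2 did by either ranking (Wilson upper bound 0.762%), against 0.0462% of its whole list. This count was chosen after its values were seen.

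**Figure D2:**
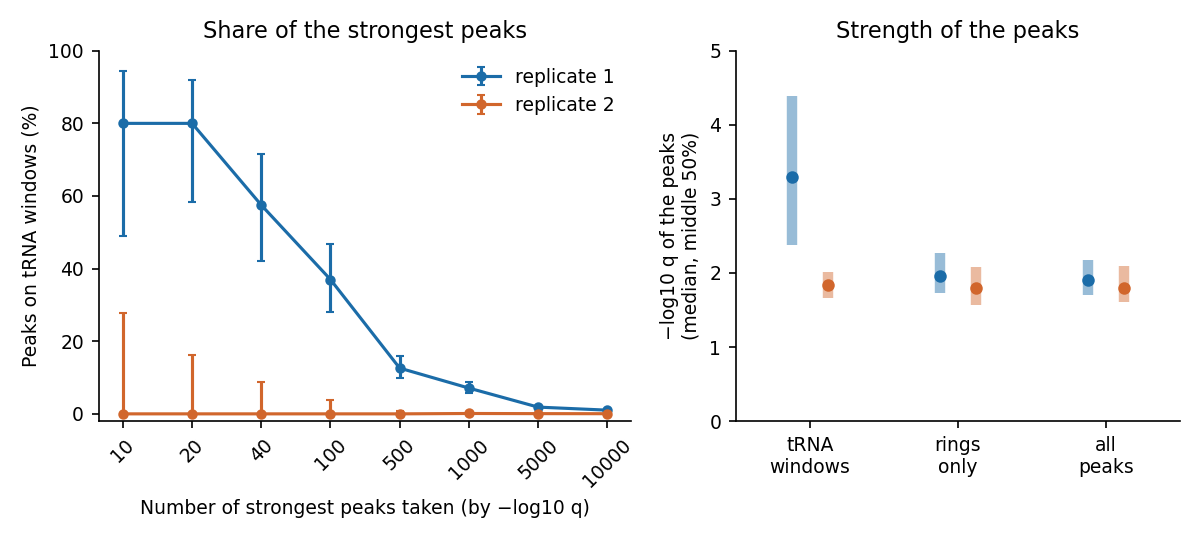
Left, the share of the strongest peaks of each list that lay on a tRNA window (%, with Wilson 95% intervals) against the number of peaks taken by −log10 q (evenly spaced categories). Right, the median −log10 q (point) and the middle 50% (bar) of the peaks on tRNA windows, on rings only and in the whole list. Replicate 1 (blue) falls from 80% of 10 peaks to 1.02% of 10000, and replicate 2 (orange) stays at 0 up to 500 peaks.

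The strongest peak of all in replicate 1 covered TRW-CCA2-1, a tryptophan tRNA gene on chromosome 17, 25602 bp from the nearest end of a protein-coding gene, SLC47A1 (peak at chr17:19507898-19508900, fold 6.08, −log10 q 8.48). The next covered a pair of cysteine genes, TRC-GCA2-3 and TRC-GCA2-4, 767 bp from PLXDC1 (chr17:39151884-39155333, 5.85 and 8.40). The third covered TRM-CAT6-1, an elongator methionine gene inside FBXO31 (chr16:87382583-87384685, 5.26 and 7.75). None of these windows had a peak in replicate 2.

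Next in order on tRNA windows came the glutamate gene TRE-CTC1-1 (fold 6.27), the arginine gene TRR-CCG2-1 (6.18), the threonine gene TRT-AGT2-1 (5.09), the initiator gene TRX-CAT1-1 (5.36), 257 bp from ILF2, and TRL-AAG2-4 (5.16), 188 bp from the gene end of POLR3E. These were named after their values were seen, and of them TRT-AGT2-1 alone also had a peak in replicate 2. The peak over TRI-AAT8-1, whose sequence stands first above, had a fold of 5.86 over 299 bp and lay 138823 bp from the nearest protein-coding gene end. Single peaks could cover several genes: a peak on chromosome 11 (chr11:59550365-59551916, 5.34) spanned the windows of TRV-TAC1-1, TRV-TAC2-1, TRR-TCT3-2 and TRL-TAA3-1, which read valine, arginine and leucine codons.

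In replicate 2 the window with the highest −log10 q was that of the valine gene TRV-AAC3-1, at 3.77 with a fold of 3.25. Its peak (chr6:27650589-27650814) ended before the gene, which starts at 27650928, while the peak of replicate 1 (fold 3.45, −log10 q 2.61) covered it. The serine gene TRS-CGA2-1 followed (fold 3.06, −log10 q 3.12), with no peak in replicate 1. The third was the leucine gene TRL-TAG2-1 (2.58 and 2.87), with 2.88 and 1.81 in replicate 1.

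Among the 48 windows with a peak in both replicates, ordered by the mean rank of their folds, the first were TRD-GTC2-9 and TRF-GAA1-4, an aspartate and a phenylalanine gene on chromosome 12. They shared a peak of fold 5.18 in replicate 1 (chr12:124927158-124928499) and 2.30 in replicate 2 (chr12:124927284-124928100). A tyrosine and an alanine gene inside AGBL5, TRY-GTA2-1 and TRA-AGC8-1, shared peaks of 4.78 and 2.30. In replicate 2 that peak was 214 bp wide and overlapped neither gene. The threonine gene TRT-AGT2-1 had folds of 5.09 and 2.29. The serine gene TRS-CGA4-1, 881 bp from SMARCC2, had 4.30 and 2.39, and the leucine gene TRL-CAA4-1 inside PGBD2 had 4.56 and 2.30. The peaks of replicate 2 at TRT-AGT2-1 and TRL-CAA4-1 did not overlap the gene either. In each of these 7 windows the fold of replicate 1 was above its list's tRNA window median of 3.90, and that of replicate 2 was close to its own median of 2.26. The order was made from these same folds, so high values in the first windows follow from it.

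Of the next 7 genes, TRA-TGC3-2 had folds of 4.0 in replicate 1 and 2.44 in replicate 2, and the isoleucine gene TRI-TAT2-1 had 4.10 and 2.36. The valine gene TRV-AAC3-1 was the tenth. The glutamine gene TRQ-CTG1-2 had 3.55 and 2.49. Folds of 4.19 and 2.27 were found at TRI-AAT2-1, another isoleucine gene. TRX-CAT1-6, an initiator gene, had 4.22 and 2.25, and the lysine gene TRK-TTT3-4 had 3.77 and 2.35. The peaks of replicate 2 at TRA-TGC3-2, TRV-AAC3-1, TRQ-CTG1-2 and TRX-CAT1-6 lay on the window and did not overlap the gene.

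The proline genes TRP-AGG2-4 and TRP-TGG2-1 shared peaks of 4.49 and 2.19. TRR-TCG1-1, an arginine gene 249 bp from POLG, the gene of the mitochondrial DNA polymerase, had 4.59 and 2.16. Its peak in replicate 2 did not overlap the gene. TRQ-TTG1-1, a glutamine gene, had 4.39 and 2.17, TRT-TGT6-1 had 4.57 and 2.14, and TRS-AGA2-4, a serine gene, had 3.37 and 2.49. The last of the 48 windows was that of TRU-TCA1-1 (3.08 and 1.99). Over all windows with a peak, fold ran from 2.73 to 6.27 in replicate 1 and from 1.91 to 3.25 in replicate 2.

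Initiator and elongator methionine tRNAs read the same codon, the first at the start of translation and the second within the chain. Of 8 initiator genes, 7 had a peak in replicate 1 and 1, TRX-CAT1-6, in replicate 2, on its window but outside the gene. Their folds in replicate 1 were 5.36 at TRX-CAT1-1, 2.81 at TRX-CAT1-2, 3.69 at TRX-CAT1-3, 3.83 at TRX-CAT1-4, 4.22 at TRX-CAT1-6, 3.47 at TRX-CAT1-7 and 4.82 at TRX-CAT1-8, and TRX-CAT1-5 had no peak. All 8 carry the same isodecoder name. Of 11 elongator methionine genes, 3 had a peak in replicate 1, TRM-CAT1-1 (3.87), TRM-CAT2-1 (3.38) and TRM-CAT6-1 (5.26), and TRM-CAT2-1 had one in replicate 2 (2.07). Of the selenocysteine genes, TRU-TCA1-1 had a peak in both replicates and TRU-TCA2-1 in neither. No gene of biotype tRNA carried a suppressor name.

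**Figure D3:**
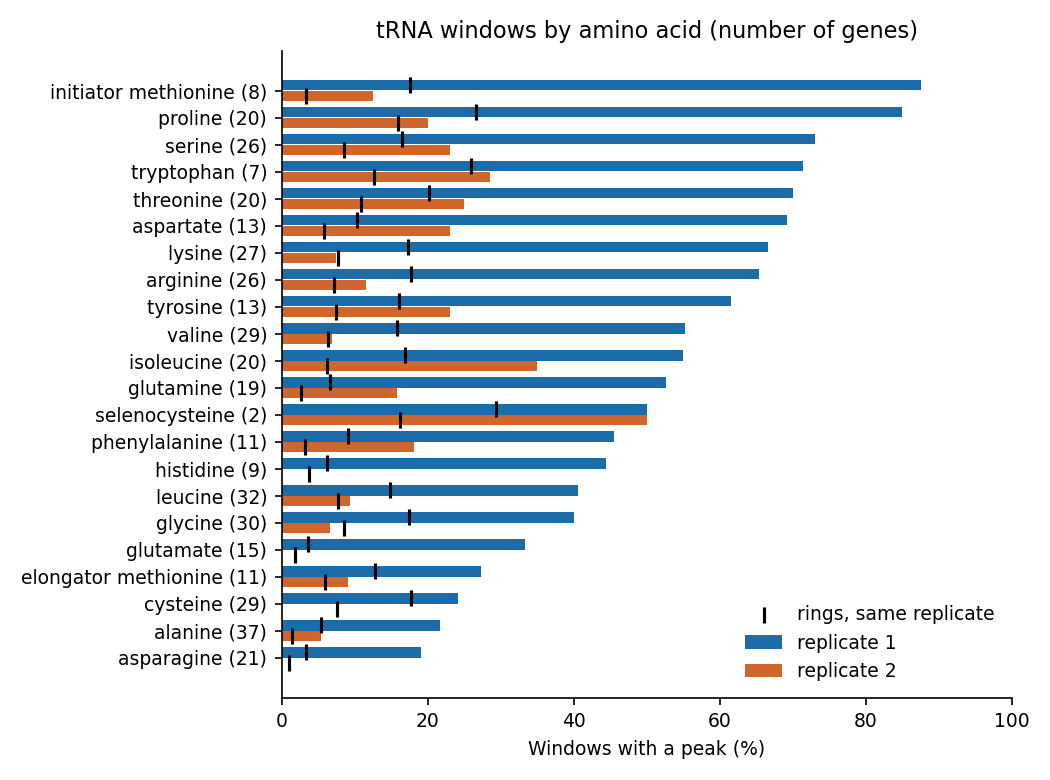
Share of tRNA windows with a peak (%) for each amino acid, with the number of genes in brackets, in replicate 1 (blue) and replicate 2 (orange), and the share in the rings of the same genes in the same replicate (black marks). In replicate 1 every amino acid was above its rings, from asparagine at 19.0% against 3.30% to initiator methionine at 87.5% against 17.6%.

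By amino acid, peaks of replicate 1 were most frequent on initiator methionine (87.5%) and proline, with 17 of 20 genes (85%). Serine had 19 of 26, tryptophan 5 of 7, threonine 14 of 20, aspartate 9 of 13, lysine 18 of 27, arginine 17 of 26, tyrosine 8 of 13, valine 16 of 29, isoleucine 11 of 20 and glutamine 10 of 19. Phenylalanine had 5 of 11, histidine 4 of 9, leucine 13 of 32, glycine 12 of 30 and glutamate 5 of 15. The lowest shares were on elongator methionine (3 of 11), cysteine (7 of 29, 24.1%, with 17.7% in its rings), alanine (8 of 37, 21.6%, 5.35%) and asparagine (4 of 21, 19.0%, 3.30%). The bars by amino acid show each share above that of its rings in replicate 1.

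In replicate 2, isoleucine had the most windows with a peak (7 of 20), followed by serine (6 of 26) and threonine (5 of 20). Proline had 4. Arginine, aspartate, glutamine, leucine and tyrosine had 3 each. Alanine, glycine, lysine, phenylalanine, tryptophan and valine had 2 each. Asparagine, cysteine, glutamate and histidine had none, against 1.00%, 7.52%, 1.78% and 3.74% in their rings. Glycine (6.67%, rings 8.58%) and lysine (7.41%, rings 7.71%) were also below their rings in replicate 2. The other amino acids were above theirs, from valine at 6.90% against 6.36% to isoleucine at 35% against 6.15% among those with 20 or more genes. Taken over all amino acids, tRNA windows also differed in their neighbourhood. On chromosome 1, 61 of the 85 windows had no peak of replicate 1 anywhere in their rings, and on chromosome 6, 80 of the 154.

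This division by neighbourhood was wide. Of 272 windows with at least 1 peak of replicate 1 in the ring, 201 (73.9%) had a peak themselves, with 22.3% of their ring windows called. Of the 153 windows with no peak in the ring, 12 (7.84%) had one. In replicate 2, 48 (17.6%) and 4 (2.61%) had a peak. The split was chosen after the data were seen and uses peaks of the same list. Whether reads could be placed in the peak-free neighbourhoods was not tested.

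**Figure D4:**
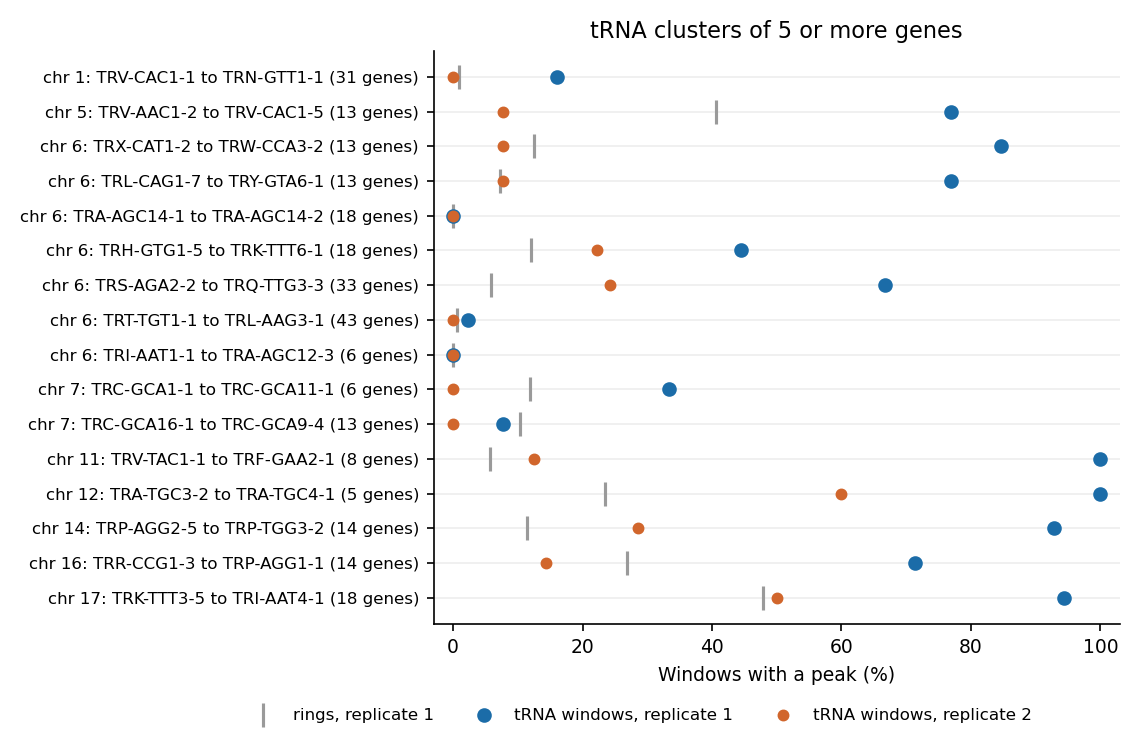
Share of tRNA windows with a peak (%) in each of the 16 clusters of 5 or more genes, named by their first and last gene, in replicate 1 (blue) and replicate 2 (orange), with the share in the rings in replicate 1 (grey marks). All genes of the chromosome 11 and chromosome 12 clusters had a peak in replicate 1, and 2 clusters on chromosome 6 had none in either replicate.

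Single genes had a peak in 48 of 80 windows in replicate 1 (60%, with 19.0% of their rings called) and 12 in replicate 2. Clusters of 2 to 4 genes had 42 of 79 (53.2%, rings 19.3%) and 6, and clusters of 5 or more had 123 of 266 (46.2%, rings 11.3%) and 34. In replicate 1, large clusters thus had the lowest share of the 3 kinds, and also the lowest in their rings. In replicate 2 the lowest share was that of clusters of 2 to 4 genes, 7.59% against 8.97% in their rings. Single genes had 15% there (rings 8.38%) and large clusters 12.8% (rings 5.265%). The 16 large clusters ranged from none to all of their genes. In replicate 1, peaks were on the windows of 8 of 8 genes on chromosome 11 (chr11:59550629-59566452), 5 of 5 on chromosome 12 (chr12:124921755-124940037), 17 of 18 on chromosome 17 (chr17:8119155-8227064), 13 of 14 on chromosome 14 (chr14:20609336-20684087) and 10 of 14 on chromosome 16 (chr16:3150674-3192060). The counts in replicate 2 were 1, 3, 9, 4 and 2. The chromosome 17 cluster had the most windows called in replicate 2, with 47.9% of its rings called in replicate 1 and 30.5% in replicate 2. On chromosome 11 the rings had 5.73% in replicate 1 and 4.31% in replicate 2. The same shares were 23.4% and 4.69% on chromosome 12, 11.4% and 11.3% on chromosome 14, and 26.9% and 17.8% on chromosome 16. In replicate 2 the chromosome 16 cluster, at 14.3%, was thus below its rings.

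Chromosome 6 carries the large tRNA region beside histone and MHC genes, and its clusters ran from nearly all genes to none. The cluster at chr6:26286526-26331515 had 11 of 13 genes with a peak in replicate 1 and 1 in replicate 2, and that at chr6:26521208-26594962 had 10 of 13 and 1. At chr6:27158127-27335062 the counts were 8 and 4 of 18, and at chr6:27478812-27795932 they were 22 and 8 of 33. The cluster of 43 genes at chr6:28474552-28989083 had 1 and none, with 0.543% of its rings called in replicate 1. The 18 genes at chr6:26673362-26828299 and the 6 at chr6:57800211-57856473 had no peak in either replicate, and none in their rings in replicate 1. Clusters with and without peaks thus stood within a single stretch of chromosome 6. In replicate 1, those with few or no peaks also had the lowest shares in their rings.

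On chromosome 1, the cluster at chr1:161399700-161540314 had 5 of 31 genes with a peak in replicate 1 and none in replicate 2, with 0.971% of its rings called. None of the 8 genes from 16520585 to 16889750 had one in either replicate. Their rings had 1.10% called in replicate 1 and 0.368% in replicate 2. Of the 32 genes from 120844262 to 149740321, 4 had one in replicate 1, and these were all the genes of 1 locus: TRE-CTC1-1, TRG-TCC2-1, TRH-GTG1-1 and TRK-CTT2-1 (chr1:146035692-146039473). The rings of these 32 genes had 0.504% called in replicate 1 and 0.955% in replicate 2. These stretches of chromosome 1 were picked after their values were seen. On chromosome 5 the cluster at chr5:181164154-181222467 had 10 of 13 (76.9%) and 1 (7.69%), with 40.7% of its rings called in replicate 1 and 8.97% in replicate 2. On chromosome 7, where most of the genes read cysteine codons, the clusters at chr7:149310190-149415209 and chr7:149546540-149707740 had 2 of 6 and 1 of 13 in replicate 1, against 11.9% and 10.3% of their rings, and none in replicate 2.

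Copies of an isodecoder did not all go together. Of 55 isodecoder names with 2 or more genes, 15 had a peak in replicate 1 on the windows of all genes, 16 on none and 24 on some. All 8 genes named TRP-AGG2 and all 6 named TRS-AGA2 had one on their window. At TRP-AGG2-2, TRP-AGG2-3, TRP-AGG2-7, TRP-AGG2-8 and TRS-AGA2-4 that peak did not overlap the gene itself. TRD-GTC2 had 7 of 11, TRH-GTG1 4 of 9, TRE-CTC1 2 of 7, TRL-CAG1 1 of 7 and TRG-TCC2 1 of 6. The TRD-GTC2, TRL-CAG1 and TRG-TCC2 genes without a peak all lay in the chromosome 1 cluster of 31 genes (0.971% of its rings called). So did TRE-CTC1-2 to TRE-CTC1-5, and also TRD-GTC2-1, which had a peak on its window. TRE-CTC1-6 lay in the chromosome 6 cluster of 43 genes (0.543%). Rings had 0% at the loci of TRH-GTG1-2, TRH-GTG1-3, TRH-GTG1-4 and TRH-GTG1-6, and 11.99% at that of TRH-GTG1-5. The part of location in these splits was not tested. Genes with an isodecoder number of 1 or 2 had a peak in 133 of 216 windows (61.6%), those with 3 or 4 in 50 of 94 (53.2%), and those with 5 or more in 30 of 107 (28.0%). In replicate 2 the counts were 30, 12 and 10. The shares in their rings fell in the same order, 16.2%, 15.4% and 10.3% in replicate 1. Windows of 105 tRNA pseudogenes had a peak in 18.1% in replicate 1, 7.62% in replicate 2 and 6.67% in both. The isodecoder groups and the pseudogenes were chosen after the data were seen.

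Peaks were more frequent on tRNA genes near protein-coding genes, and also on genome windows there. Within 1 kb of a protein-coding gene end, 50 of 54 tRNA windows had a peak in replicate 1 (92.6%), against 41.3% of genome windows at the same distance. The 4 without were TRE-TTC1-1, TRE-TTC1-2, TRC-GCA8-1 and TRN-GTT2-5, named after their values were seen. At 1 to 5 kb the share was 70.6% of 51 (22.9% of genome windows), at 5 to 20 kb 65.2% of 115 (16.3%), at 20 to 100 kb 26.7% of 146 (11.9%) and above 100 kb 13 of 59 windows had a peak (5.32% of genome windows). The ratio was between 2.24 and 4.14 in every bin, and higher above 100 kb than within 1 kb. With 92.6% of tRNA windows called within 1 kb, the ratio there could rise little further. The ratios of these bins therefore cannot be ranked against each other.

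In replicate 2 the shares over the same bins were 16.7% within 1 kb, against 15.7% of genome windows, then 29.4% (10.9%), 13.9% (8.42%), 6.16% (6.59%) and 5.08% (3.27%). Within 1 kb of a gene end and at 20 to 100 kb, the share in replicate 2 was close to that of genome windows. Inside protein-coding genes 30 of 43 tRNA windows (69.8%) had a peak in replicate 1, with 24.1% of their rings called, and 8 (18.6%) in replicate 2, with 13.9%. Outside them 183 of 382 (47.9%) had a peak in replicate 1, with 13.1% of their rings called, and 44 (11.5%) in replicate 2, with 5.72%. The rings were thus also higher inside genes.

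**Figure D5:**
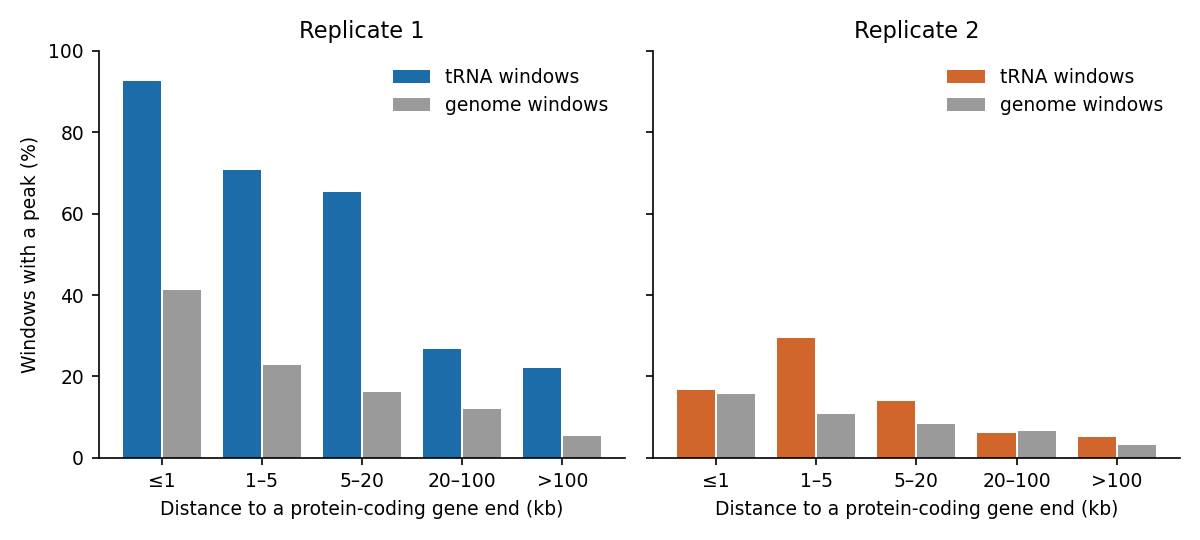
Share of tRNA windows (coloured) and of genome windows of 1073 bp (grey) with a peak (%) by distance to the nearest end of a protein-coding gene (kb), for replicate 1 (left) and replicate 2 (right). In replicate 1 the coloured bar was above the grey bar in every bin, and in replicate 2 it was below it at 20 to 100 kb.

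Other short RNA genes were counted with the same flank. Windows of microRNA genes had a peak in 38.4% in replicate 1, 15.4% in replicate 2 and 11.2% in both, over 1793 windows. Small nuclear and nucleolar RNA genes, mostly made by RNA polymerase II or cut from introns, had 15%, 6.43% and 3.95% over 1290 windows. In replicate 1 the tRNA windows at 50.1% were above both, and in replicate 2, at 12.2%, they lay between them.

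Among 37 other genes transcribed by RNA polymerase III, 15 had a peak in replicate 1 (40.5%), 3 in replicate 2 (8.11%) and 2 in both (5.41%). Of the genome windows, 12%, 6.29% and 3.34% were called, so the counts in replicate 2 and in both were near the background. Those with both were RN7SL2, an RNA of the signal recognition particle (fold 3.65 and 2.13), and the U6 spliceosomal RNA gene RNU6-1 (2.95 and 3.38, with a −log10 q of 6.25 in replicate 2). The vault RNA gene VTRNA1-1 (5.07) and RNU6-2 (4.58) had a peak in replicate 1 only, and were named after their values were seen. None of the 17 genes of 5S ribosomal RNA, whose promoter also lies inside the gene but which stand in a repeated array, had a peak in replicate 1.

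The protein-coding genes of the tRNA pathway were counted within 1 kb of either gene end, where 71.9% of 18973 protein-coding genes had a peak in replicate 1, 38.4% in replicate 2 and 34.8% in both. Of 18 subunits of RNA polymerase III, 16 had a peak in replicate 1, 9 in replicate 2 and 8 (44.4%) in both. The 8 were POLR3A and POLR3B, which form the active centre, POLR3GL, POLR1C, POLR1D, POLR2F, POLR2H and POLR2L. The best ranked were POLR2F (4.07 and 2.47) and POLR1D (3.35 and 2.51), which are shared with other polymerases. Of 17 factors that recruit the polymerase or regulate it, 15, 6 and 6 (35.3%) did: GTF3C2, GTF3C3, BRF1, TBP, SNAPC1 and SNAPC2. SNAPC1 had 3.49 and 2.34. GTF3C2, a TFIIIC subunit, had 3.83 and 2.15, and GTF3C3, another and of equal rank, had 3.03 and 2.41.

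Of 23 genes of aminoacyl-tRNA synthetases and their partners, which load amino acids onto tRNAs, 20, 10 and 10 (43.5%) had a peak. The 10 were AARS1, FARSA, FARSB, GARS1, HARS1, KARS1, MARS1, NARS1, QARS1 and YARS1, led by AARS1 (3.67 and 2.23) and NARS1 (3.50 and 2.498). Of 46 genes that trim, splice, modify or export tRNAs, 36, 21 and 19 (41.3%) did. Those with both were the RNase P subunits POP5, POP7, RPP14, RPP25, RPP30 and RPP40, and CLP1, XPOT, TRMT1, TRMT6, TRMT61A, PUS1, PUS7, QTRT1, ALKBH8, CTU1, CTU2, PSTK and EEFSEC. PUS1, a pseudouridine synthase, had 3.53 and 3.03. XPOT, the exporter of tRNAs, and TRMT1, a methyltransferase, had equal ranks, with 3.30 and 2.34 and with 3.59 and 2.13. For each of the 4 lists the share with both was close to or above that of all protein-coding genes.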

How the data were processed

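The authors deposited 1 broad peak list per ChIP replicate, with coordinates on hg38. Bowtie2 2.2.9 and MACS2 2.1.1 are named in the submitters' processing notes, but the sources used here do not give their settings. In the deposited lists, column 7 is the caller's fold enrichment, a ratio, and column 9 its −log10 q-value, with a lowest value of 1.3 in both lists. Reads were not used, so depth is unknown, and the inputs entered only through the caller.

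Peaks were overlapped with windows around the tRNA genes of RefSeq (GRCh38.p14) in Python 3.11.15 with numpy 2.4.6 and pandas 2.3.3, and the overlap counts were tested on simulated data. The gene table gives no strand or exons. Rings were consecutive windows of a gene's window width, 1 to 20 kb away, without those that overlapped another tRNA window. Named were the first 20 genes with a peak in both lists, by the mean rank of fold, the 3 windows with the highest −log10 q per list, all clusters of 5 or more genes, all amino acids, the initiator, selenocysteine and suppressor genes, and, in each related list, members with both peaks. Members and lists were chosen with earlier results of these data known. Alternatives varied the flank, peak threshold, overlap, weighting, chromosomes and rings. Of the 4 genes on X, left out by the choice of chromosomes, 1 had a peak in replicate 1 and 0 in replicate 2.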

Additional observations from a re-analysis of the deposited data

How the results depend on the processing

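The ratio of tRNA windows to their rings stayed above 1 under all 13 alternatives in each replicate (2.58 to 27.7 in replicate 1, 1.37 to 3.36 in replicate 2) and all 14 for both replicates that gave a value (1.83 to 5.32). In replicate 1 the share of windows with a peak was 44.9% with no flank (ratio 4.90), 44.7% with a minimum −log10 q of 2 (5.94), 31.1% at 3 (27.7), 45.2% with equal numbers of peaks per list (4.70) and 38.6% for an overlap of 50% of the window (6.62). It was 58.2% with loci weighted equally (3.12), 56.8% without chromosome 6 (2.90) and 43.9% without genes within 1 kb of a protein-coding gene end. The ratio was 4.39 with a flank of 200 bp, 2.58 with 1 kb, 5.13 for the 50% of peaks with the higher fold and 4.06 with rings of 1 to 5 kb. In replicate 2 the share was 6.35% with no flank, 8.47% with 200 bp, 3.29% at a −log10 q of 2 (ratio 1.37), 0.471% at 3 (3.36, from 2 windows), 5.88% for the higher folds and 5.18% for the 50% overlap (2.46). For both replicates it was 4.94% with no flank, 7.06% with 200 bp, 2.35% at a −log10 q of 2, 0% at 3, where the rings were also at 0 and no ratio could be had, 4.24% for the higher folds (5.32) and 4.24% for the 50% overlap (4.31), and the ratio was 1.83 with a flank of 1 kb. Leaving out a replicate gave shares from 12.2% to 50.1% and ratios from 1.87 to 3.51. The cause of these differences was not tested, beyond the fewer peaks or narrower windows that some settings leave.

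No paired analysis was possible because each replicate has 1 peak list and the results come from no test. With 2 lists, no mock precipitation and unknown depth, the difference between the replicates cannot be told apart from differences in depth or peak calling. Counts on near-identical genes rest on how reads were placed, and the sources used here do not say how. The rings measure a neighbourhood and not the same sequence.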
